A study of Mus musculus with 6 samples.

Results

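The genes described here encode the canonical histones, the proteins that wrap DNA into nucleosomes, together with the linker histones of the H1 family. They were taken from the array's annotation by symbol, as every probe whose gene symbol begins with H1f, H2ac, H2bc, H3c, H4c or Hist1 to Hist4. The rule gave 57 probes for 52 gene symbols, of 20690 probes with a symbol and 23473 probes in all. By class these were 10 probes for the linker histone H1, 13 for H2A, 14 for H2B, 9 for H3 and 11 for H4. The rule itself uses symbols and no measured value, but the gene group was chosen with earlier results of these data known.

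The arrays measured RNA of oligodendrocyte precursor cells (OPCs), progenitors of the glia that make myelin, taken from the forebrain of Jcl:ICR mouse embryos at stage E15.5. Both groups were grown with the growth factors FGF2 and PDGF-AA. The Control group (3 samples) received a control retrovirus and the Chd7 KD group (3 samples) a retrovirus that knocks down Chd7, a chromatin remodeller of the CHD family, and cells were harvested 3 days after infection. Each sample had a one-colour array of its own. The labels give neither the knockdown sequence nor whether the replicates are separate cultures. The p-values therefore cover the spread among these samples alone, and that spread may be technical.

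A nucleosome holds pairs of H2A, H2B, H3 and H4, and H1 sits where DNA enters and leaves it. The genes for these proteins come in clusters of many near-identical copies, are transcribed mainly while DNA is replicated, and mostly lack introns. Their mRNAs usually end in a conserved stem-loop instead of a poly(A) tail, which the stem-loop binding protein holds. These mRNAs are made and degraded in step with DNA synthesis. The labelling kit used here starts from an oligo(dT) primer, so the signal depends on how many of these transcripts carry a poly(A) stretch, which was not measured. Because the copies are so alike and the probe sequences were not used here, the signal of a probe cannot be assigned to its named copy with certainty, and values are read by class. In bulk RNA, fewer cells that express a gene and less RNA per cell cannot be told apart.

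The promoters shown first are those of H4c18, H4c8 and H4c12 and of the H2A genes next to them. These H4 genes had the largest rise of the class in the scanner values. Of these H2A genes, only H2ac10 passed the threshold used below, with the limits given there. In each, the stretch runs from 130 bases before to 15 bases after the start in the RefSeq annotation of GRCm38.p6, read 5′ to 3′ on the gene's strand. Capitals mark 3 motifs, on either strand. The letters TATAAA are the core of a TATA box. The letters CCAAT, which read ATTGG when the motif lies on the opposite strand, are the CCAAT box. The letters GGTCCG, or CGGACC when reversed, are the core of an element known from H4 promoters. The H4c8 stretch is chr13:23530914-23531058 on the plus strand and that of H2ac10 is chr13:23533745-23533889 on the plus strand. H4c18 is chr13:21832183-21832327 and H2ac24 chr13:21833461-21833605, both on the minus strand. H4c12 is chr13:21750539-21750683 and H2ac15 chr13:21753898-21754042, also on the minus strand.
H4c8: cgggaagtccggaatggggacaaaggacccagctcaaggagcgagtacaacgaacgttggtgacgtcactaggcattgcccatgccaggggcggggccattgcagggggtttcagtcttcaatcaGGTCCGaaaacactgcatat
H4c18: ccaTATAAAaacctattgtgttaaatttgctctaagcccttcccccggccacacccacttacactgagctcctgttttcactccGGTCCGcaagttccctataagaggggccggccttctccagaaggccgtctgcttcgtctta
H4c12: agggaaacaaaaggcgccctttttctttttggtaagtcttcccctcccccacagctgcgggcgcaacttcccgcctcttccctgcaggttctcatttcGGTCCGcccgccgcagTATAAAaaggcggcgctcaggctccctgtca
H2ac10: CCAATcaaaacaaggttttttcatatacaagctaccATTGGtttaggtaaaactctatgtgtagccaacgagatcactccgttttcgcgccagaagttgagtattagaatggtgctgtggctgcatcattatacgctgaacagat
H2ac24: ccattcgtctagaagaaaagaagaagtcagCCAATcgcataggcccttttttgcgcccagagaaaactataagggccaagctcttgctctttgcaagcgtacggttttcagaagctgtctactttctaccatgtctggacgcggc
H2ac15: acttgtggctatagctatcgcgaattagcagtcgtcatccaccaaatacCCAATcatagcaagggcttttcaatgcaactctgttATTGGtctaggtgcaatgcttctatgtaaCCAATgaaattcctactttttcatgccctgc

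Over the whole 300-base window of the RefSeq table (250 bases before to 50 after the start, both strands searched), the classes differed in what they carried. GGTCCG was present in 9 of 10 H4 promoters, the exception being H4c1, and in 0 of 10 of H2A, 1 of 10 of H2B, 1 of 5 of H3 and 1 of 9 of H1, against 8.25% of all 32851 promoters in the table. CCAAT was found in 10 of 10 H2A, 10 of 10 H2B and 5 of 5 H3 promoters, in 7 of 9 of H1 and in 3 of 10 of H4, against 37.4% of all. TATAAA was in 7 of 10 H4 and 7 of 10 H2A promoters, 5 of 10 of H2B, 2 of 5 of H3 and 4 of 9 of H1 (13.6% of all). ATTTGCAT, the octamer known from H2B promoters, was in 5 of 10 H2B and 4 of 10 H2A promoters and in none of the H1, H3 or H4 promoters of the table (1.74% of all). GGTCCG was added to the search after promoters and values had been seen. H4c14, the sole H4 gene that did not rise below, had no promoter in the table. All 10 H4 promoters searched were thus of genes that rose. These matches are descriptions of the letters and not binding sites.

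Chd7 was lower in each knockdown sample than in each control. It read 9.44, 9.20 and 9.47 (log2 intensity, Control replicates 1 to 3) against 8.54, 8.44 and 8.48 (Chd7 KD replicates 1 to 3), a log2 fold change of -0.88 (adjusted p = 0.00127 in limma, SE 0.0859), and -0.48 on its other probe. The raw median per array ranged from 83.4 to 89.4 where blanks averaged 58.9 to 61.9, and detection reached 87.0% to 89.8% of probes. With 3 arrays a group, array number limits the precision of every value. Of the precursor markers that define these cells, Pdgfra, Cspg4, Olig1, Olig2 and Sox10 were all above the detection limit, while Pdgfra (-1.36), Cspg4 (-0.48), Sox10 (-0.52) and Olig2 (-0.35) fell in the knockdown. A replicate number is shared between the groups. A gain slope in the file headers was 0.464 to 0.467 for Control replicates 1 and 2 and Chd7 KD replicate 2. It was 0.478 to 0.479 for the remaining 3 arrays. These sets are called the first and second scanner gain group, a split made here from the slopes alone.

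Histone H4 transcripts were higher after Chd7 knockdown, whereas the brightest H2A probes read slightly lower. Of 57 histone probes, 56 passed the filter on dim probes and were tested, and H1f6, a testis linker histone gene, was not well above background on any array. In the knockdown, 20 of the 56 rose, 1 fell and 35 did not pass at an adjusted p below 0.05 in limma. Over all 20957 probes tested, 4.05% rose and 4.81% fell. With the replicate number as a block 24 histone probes rose and 1 fell, against 6.74% and 6.9% of all. In the authors' values 15 rose and 0 fell, against 1.63% and 3.56% (342 and 747 probes, where the scanner values gave 848 and 1007). With median scaling 19 rose and 0 fell, against 2.81% and 3.76%. The knockdown and control samples did not overlap for 29 histone probes that were higher and 4 that were lower, against 13.9% and 15% of all tested probes. The median log2 fold change over the 56 was 0.14, where that over all tested probes was 0.00024. The probe level of one gene is not set against that of another, since brightness depends on the probe.

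**Figure D1:**
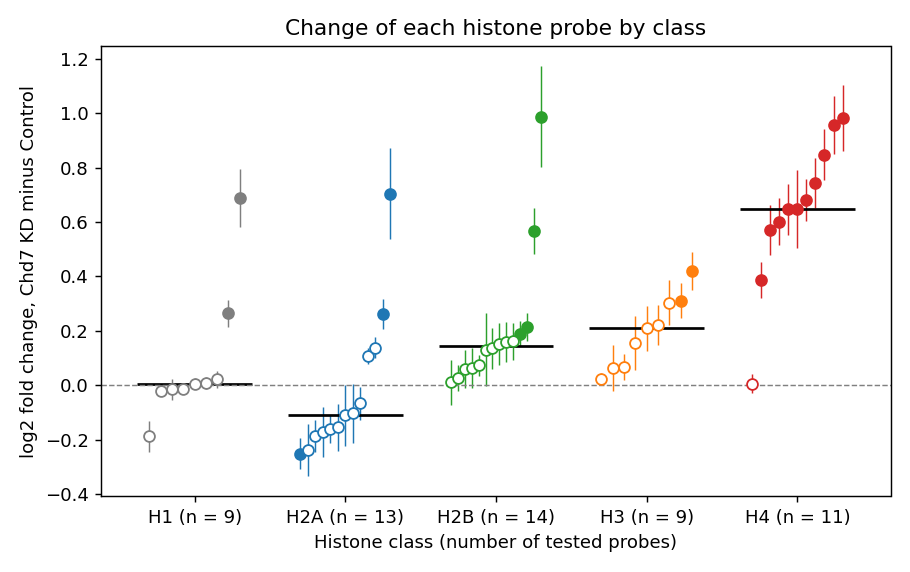
Log2 fold change (Chd7 KD minus Control) of each of the 56 tested histone probes, in columns by class, with bars of 1 SE; filled points passed at an adjusted p below 0.05, open points did not, and black lines are class medians. The H4 column stands at a median of 0.65 with 10 of 11 points filled, and the H2A column at a median of -0.11.

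The class medians ranged from -0.11 to 0.65. The median log2 fold change was 0.65 for H4 (10 of 11 probes rose), 0.21 for H3 (2 of 9 rose), 0.14 for H2B (4 of 14 rose), 0.0061 for H1 (2 of 9 rose) and -0.11 for H2A (2 of 13 rose and 1 fell). All 14 H2B probes and all 9 H3 probes had positive values, as did all 11 H4 probes, but 9 of 13 H2A probes and 4 of 9 H1 probes had negative ones. These signs of H2B and H3 held under median scaling, cyclic loess and the authors' own values. Not all held with fewer arrays: 12 of 14 H2B probes were positive without Control replicate 3, 13 of 14 without Control replicate 2, without Chd7 KD replicate 1 and in the first gain group alone, and 8 of 9 H3 probes in the second gain group alone. The H2A median was -0.072 without Chd7 KD replicate 1 and -0.17 without Chd7 KD replicate 3. Differences between class medians carry no test, because the classes are lists of probes that share sequence and samples.

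The knockdown samples lay on one side of the controls for H4, H3 and H2B, but not for H2A. Taken as each sample's median distance from the Control mean of the same probes, H4 stood at -0.043, 0.084 and 0.0052 in the control samples, in the order of their numbers, against 0.85, 0.55 and 0.63 after knockdown. H2B stood at 0.13, 0.12 and 0.11 and H3 at 0.16, 0.19 and 0.15 in the 3 knockdown samples. H2A stood at -0.18, -0.17 and -8.5e-05. The first and second knockdown samples lay under all controls for H2A, but the third lay within their range, whereas for H4 every knockdown sample lay above every control.

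**Figure D2:**
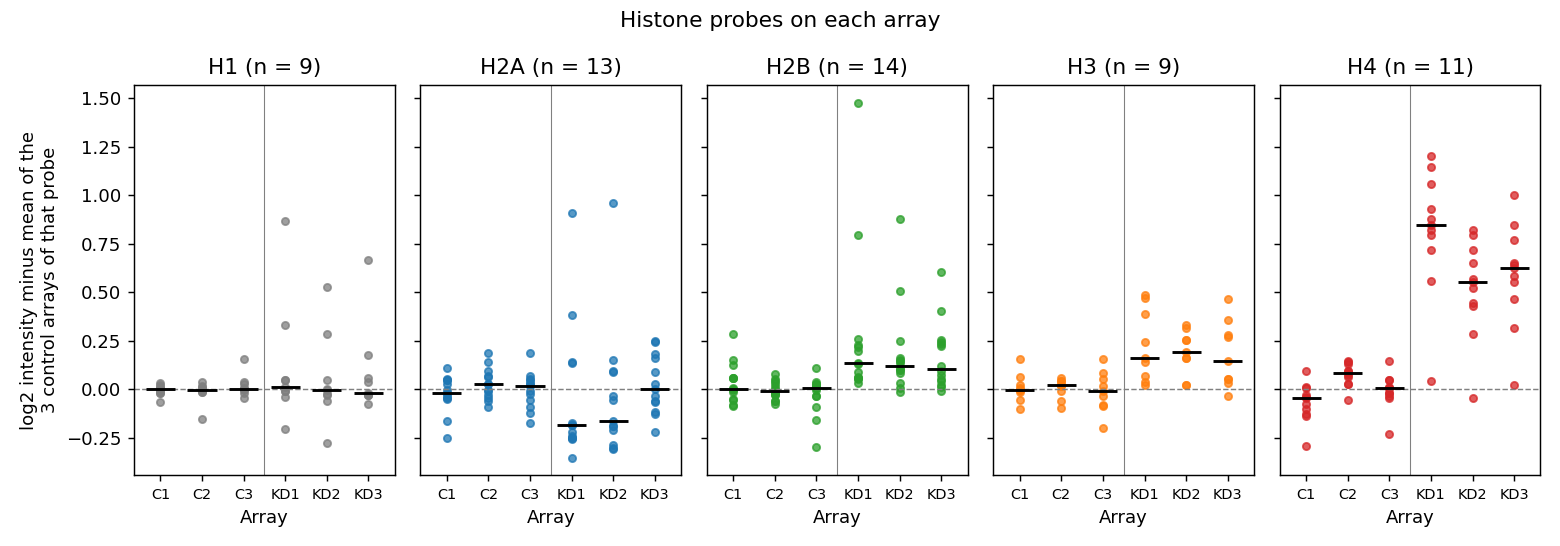
Each tested histone probe's log2 intensity on each array minus the mean of its 3 control arrays, in 1 panel per class (C1 to C3, Control; KD1 to KD3, Chd7 KD); black lines are the medians of the class on that array. In the H4 panel the knockdown medians are 0.85, 0.55 and 0.63, above the 3 control medians, and in the H2A panel the third knockdown array returns to the control range.

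H4 is the histone whose copies encode almost the same protein from each gene, and it was the class with the largest share of probes that rose. H4c18 read 9.79, 9.84 and 9.46 in control samples against 10.85, 10.49 and 10.70 after knockdown (log2 intensity), group means of 9.70 ± 0.20 and 10.68 ± 0.18 (SD, n = 3). Its log2 fold change was 0.98 (adjusted p = 0.00252, SE 0.122), a 1.97-fold rise. H4c8 read 8.33, 8.50 and 8.39 in control samples against 9.61, 9.23 and 9.25 after knockdown, a log2 fold change of 0.96 (adjusted p = 0.0018, SE 0.107). For both genes the lowest knockdown sample lay more than 0.5 above the highest control.

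H4c12 had the smallest p of all histone probes. It read 7.74, 7.84 and 7.72 in control samples against 8.82, 8.48 and 8.54 after knockdown (log2 fold change 0.85, adjusted p = 0.00167, SE 0.0931). H4c2 rose by 0.74 (adjusted p = 0.00239, SE 0.0916), from 7.78, 7.97 and 7.88 to 8.81, 8.53 and 8.53. The groups of both genes were well apart, and Chd7 KD replicate 1 was the highest sample for each. That sample was also the highest of the 6 for H4c18, H4c8, H4c4, H4c6, H4c3, H4c1, H4c11 and H4c9.

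The other H4 genes rose by less or on dimmer probes. H4c4 rose by 0.68 (adjusted p = 0.00181), H4c6 by 0.65 (0.00465), H4c3 by 0.60 (0.00441), H4c1 by 0.57 (0.00679) and H4c11 by 0.39 (0.00902). The H4c11 probe lay near the floor at 6.02, 5.95 and 6.06 in control samples against 6.57, 6.30 and 6.33 after knockdown, where the offset used against background shrinks a change. In the authors' values, taken as log2 of the value + 1, it read 1.26. There H4c11 and H4c4 (1.03) changed more than H4c8 (1.02), H4c12 (0.99) and H4c18 (0.98), so the order of the H4 genes depends on the processing.

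H4c9, one of the brightest H4 probes with H4c18, read 9.38, 9.82 and 9.82 in control samples against 10.55, 10.12 and 10.30 after knockdown. Its log2 fold change was 0.65 (adjusted p = 0.0249, SE 0.143). It did not pass without Chd7 KD replicate 1 (adjusted p = 0.0893) or 3 (0.0698), in the authors' values (0.118) or with a variance model without trend (0.0611). The samples did not overlap, but Control replicate 1 stood apart from the other controls. The remaining 9 H4 genes that rose passed whichever of the 6 arrays was left out and in the authors' values.

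H4c14, the sole H4 gene that did not pass, read 6.29, 6.31 and 6.25 in control samples against 6.33, 6.24 and 6.31 after knockdown. Its log2 fold change was 0.0065 (adjusted p = 0.942, SE 0.0357) and the groups overlapped. Its older symbol, Hist2h4, places it in a smaller histone cluster than the others, whose older symbols begin with Hist1h4. The probe was the second dimmest of the class, after that of H4c11. Whether cluster, signal level or the probe itself goes with the lack of change was not tested.

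H4f16, an H4 gene outside the symbol rule, also rose. It read 6.51, 6.62 and 6.63 in control samples against 7.17, 6.97 and 7.01 after knockdown, a log2 fold change of 0.46 (adjusted p = 0.00369, SE 0.0627). No knockdown sample overlapped the controls.

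Each scanner gain group alone sets 2 arrays against 1. The H4 class median was 0.54 in the first and 0.68 in the second gain group, and 10 and 11 of the 11 probes had positive values, while 0 and 1 passed. Without both arrays numbered 1 the H4 median was 0.50 and 9 of 11 H4 probes passed.

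H2A pairs with H2B in the nucleosome and contains the brightest histone probes of the array. Among the 13 H2A probes, 8 had a mean log2 intensity of 14.0 to 14.8, and all 8 had negative log2 fold changes, with a median of -0.16. H2ac10 was the one that passed. It read 14.54, 14.43 and 14.50 in control samples against 14.27, 14.18 and 14.27 after knockdown, a log2 fold change of -0.25 (adjusted p = 0.0267, SE 0.0562). Its groups did not overlap, yet the call was not firm: it was lost with median scaling (adjusted p = 0.271), in the authors' values (0.135), and without Control replicates 1 or 3 or any 1 of the 3 knockdown samples (0.0559 to 0.101).

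H2ac24 was the brightest histone probe, at 14.91, 14.91 and 14.82 in control samples against 14.71, 14.82 and 14.91 after knockdown (log2 fold change -0.07, adjusted p = 0.577, SE 0.0622). H2ac11 read 14.68, 14.76 and 14.76 in control samples against 14.55, 14.57 and 14.61 after knockdown (log2 fold change -0.16, adjusted p = 0.0902). The groups overlapped for H2ac24 and not for H2ac11. H2ac15 (-0.19, adjusted p = 0.0807), H2ac22 (-0.17, 0.312) and H2ac20 (-0.24, 0.172) did not pass either, nor did the 2 bright H2ac18 probes (-0.15, 0.331 and -0.10, 0.63).

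The bright H2A probes were set beside the other probes of like brightness. Of 49 tested probes that are not histone probes and were at least as bright, 32 had positive and 17 negative values, with a median of 0.03, 1 that rose and 1 that fell. All 8 bright H2A probes stayed negative under every alternative tried with all 6 arrays (7 of 7 with 1 probe for each gene), and without each array in turn, and 7 of 8 in the first gain group alone. In raw signal, the highest histone reading per array was 26094 to 31765, and the brightest probe of an array reached 41188 to 56832. Each reading joins 3 gains, and saturation at a single gain was not tested.

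A dimmer H2ac18 probe went the other way. It read 8.52, 8.61 and 8.43 in control samples against 9.43, 9.48 and 8.76 after knockdown, a log2 fold change of 0.70 (adjusted p = 0.0335, SE 0.168), and the groups did not overlap. Its spot in Chd7 KD replicate 3, the lowest of the 3 knockdown values, was marked by the scanner at 1 of the 3 gains, and the call was lost without any 1 of the other 5 arrays (adjusted p 0.0629 to 0.123). Without that spot's array it passed. In the authors' values, where that cell is empty and the fit used the 5 other samples, it read 1.02 (adjusted p = 0.00933). The 3 probes of this gene thus disagreed in sign.

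**Figure D3:**
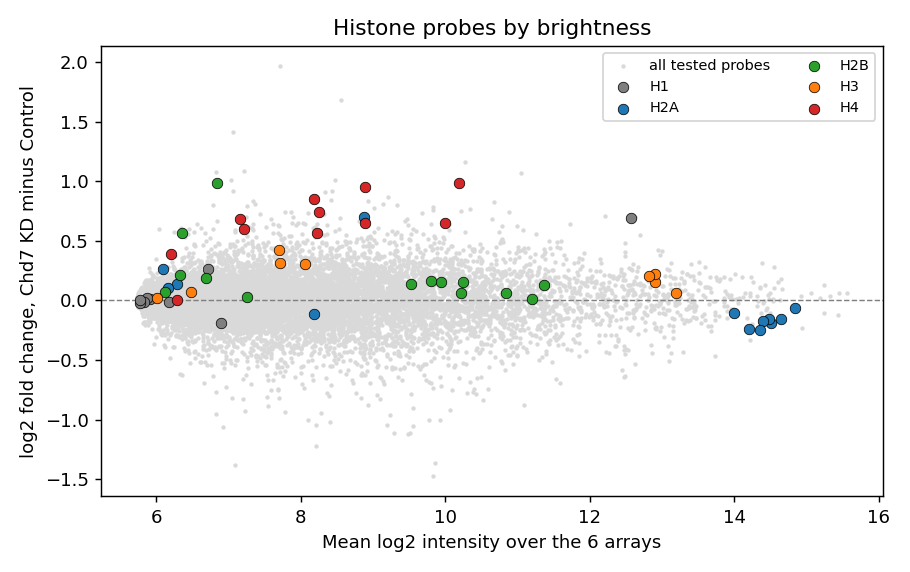
Log2 fold change (Chd7 KD minus Control) against mean log2 intensity over the 6 arrays, for all 20957 tested probes (grey) and the 56 tested histone probes, coloured by class. H4 probes lie well above 0 in the middle of the brightness range, and the 8 bright H2A probes between 14.0 and 14.8 all lie below 0.

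The 3 dim H2A probes all had positive values, and H2ac8, of middle brightness, read -0.11 (adjusted p = 0.614) with overlapping groups. Hist3h2a rose by 0.26 (adjusted p = 0.021, SE 0.0547), from 5.92, 5.93 and 6.03 in control samples to 6.34, 6.11 and 6.21 after knockdown. Leaving out Control 1, Control 2 or Chd7 KD replicate 3 ended this call (adjusted p 0.0512 to 0.0743), and it did not pass in the authors' values (0.0515). H2ac1, known from the testis, read 0.11 (adjusted p = 0.0506) and H2ac4 0.14 (0.0585), and with the replicate number as a block both passed (0.0497 and 0.0285). For all 3 genes every knockdown sample lay above every control, at levels close to the floor of the scale.

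H2B, the partner of H2A, had small positive values in most genes and large ones in 2 probes. Hist2h2bb had the highest log2 fold change of all histone probes. It read 6.48, 6.38 and 6.19 in control samples against 7.83, 7.23 and 6.95 after knockdown, means of 6.35 ± 0.15 and 7.34 ± 0.45 (SD, n = 3). The log2 fold change was 0.99 (adjusted p = 0.0131, SE 0.185), and every knockdown sample was above every control. It passed in each fit that left out 1 array, with an adjusted p of up to 0.0494.

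H2bc6 had 2 probes that did not agree. The dimmer one rose by 0.57 (adjusted p = 0.00504, SE 0.0841), from 6.06, 6.05 and 6.11 in control samples to 6.87, 6.58 and 6.48 after knockdown. The brighter one read 7.25, 7.25 and 7.24 in control samples against 7.28, 7.26 and 7.29 after knockdown, a log2 fold change of 0.03 (adjusted p = 0.784, SE 0.0475). The groups did not overlap on either probe, but only the dimmer one passed.

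H2bc21, an H2B gene known from olfactory neurons, rose by 0.21 (adjusted p = 0.0317, SE 0.0503), and H2bc3 by 0.19 (adjusted p = 0.032, SE 0.0448). H2bc21 lost its call when Control 1 or 2 or any 1 knockdown sample was left out (adjusted p 0.0567 to 0.108), and H2bc3 without any 1 of the 6 arrays (0.0557 to 0.107). Neither passed in the authors' values (0.0798 and 0.0575). In both genes the groups did not overlap.

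The brightest H2B probes did not pass. H2bc4 read 11.58, 11.31 and 10.998 in control samples against 11.35, 11.54 and 11.39 after knockdown (log2 fold change 0.13, adjusted p = 0.615, SE 0.135). H2bc7 read 11.34, 11.13 and 11.10 against 11.25, 11.18 and 11.18 (0.01, adjusted p = 0.961, SE 0.0832). The groups overlapped for both. The other 7 H2B probes had log2 fold changes between 0.06 and 0.16, and none of these passed.

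H3, whose tail carries many of the known histone marks, had positive values on all 9 probes. H3c11 read 7.55, 7.51 and 7.40 in control samples against 7.97, 7.80 and 7.95 after knockdown, a log2 fold change of 0.42 (adjusted p = 0.00734, SE 0.0688). H3c1 read 7.54, 7.57 and 7.55 in control samples against 7.94, 7.75 and 7.91 after knockdown, a log2 fold change of 0.31 (adjusted p = 0.021, SE 0.0655). The groups of both genes did not overlap. H3c11 passed in each fit that left out 1 array, while H3c1 lost its call when Control 2 or 3, or Chd7 KD 1 or 3, was left out (adjusted p 0.059 to 0.0814), with median scaling (0.0588) and in the authors' values (0.0774).

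The promoter of H3c11 is shown because it was the H3 gene of the largest change and the one H3 promoter of the table with GGTCCG. The motif lies here on the other strand and overlaps a CCAAT. The H2B and H1 promoters with GGTCCG were those of H2bc9 (log2 fold change 0.06, adjusted p = 0.669 in limma) and H1f10 (-0.19, 0.0807), and neither passed. H1f2, which rose by 0.69, had no GGTCCG. A link between the motif and the changes was not tested. The stretch is chr13:21783383-21783527 on the minus strand.
H3c11: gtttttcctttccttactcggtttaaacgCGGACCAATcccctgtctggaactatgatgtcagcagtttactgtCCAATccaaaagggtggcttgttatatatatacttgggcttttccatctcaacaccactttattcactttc

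The bright H3 probes did not pass. H3c4 read 13.11, 13.07 and 13.32 in control samples against 13.23, 13.32 and 13.13 after knockdown (log2 fold change 0.06, adjusted p = 0.707, SE 0.0845). The bright H3c7 probe read 12.99, 12.88 and 12.63 against 12.99, 13.09 and 12.88 (0.16, adjusted p = 0.39, SE 0.0982). Both sets of samples overlapped. H3c15 (0.22, adjusted p = 0.0968) and the middle probe of H3c3 (0.30, 0.0545) did not pass, but did with the replicate number as a block (0.0395 and 0.0273), which raised the calls for H3 from 2 to 4. The remaining H3 probes were the bright one of H3c3 (0.21, adjusted p = 0.167), H3c8 (0.07, 0.44) and the dim one of H3c7 (0.02, 0.526).

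Linker histones bind the nucleosome from outside and help compact the fiber, and only 2 of the 9 tested H1 probes passed. H1f2, which encodes a somatic linker histone, read 12.23, 12.07 and 12.38 in control samples against 13.09, 12.75 and 12.89 after knockdown, means of 12.23 ± 0.15 and 12.91 ± 0.17 (SD, n = 3). The log2 fold change was 0.69 (adjusted p = 0.00562, SE 0.105), a 1.61-fold rise with no overlap between the groups. H1f2 was also the bright histone probe with the second highest change after H4c18. It passed in each fit that left out 1 array, in the authors' values (adjusted p = 0.0473) and with median scaling (0.0089).

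The H1f2 promoter stretch, printed because this gene stands apart from its class, is chr13:23738677-23738821 on the plus strand.
H1f2: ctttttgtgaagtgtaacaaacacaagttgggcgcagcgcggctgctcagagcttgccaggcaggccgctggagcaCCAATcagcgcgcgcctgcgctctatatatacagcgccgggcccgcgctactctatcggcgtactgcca

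H1f3, another somatic linker histone gene, rose by 0.26 (adjusted p = 0.0142, SE 0.0504), from 6.60, 6.58 and 6.60 in control samples to 6.92, 6.88 and 6.77 after knockdown. The H1f3 call was lost without Control replicate 2 or Chd7 KD replicates 1 or 2 (adjusted p 0.0545 to 0.058). H1f10, a linker histone gene outside the replication-dependent clusters, read 6.98, 7.01 and 6.999 in control samples against 6.79, 6.72 and 6.92 after knockdown. Its log2 fold change was -0.19 (adjusted p = 0.0807, SE 0.0578). The groups did not overlap, and it passed without Chd7 KD replicate 3 (-0.24, adjusted p = 0.0471).

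The other 6 H1 probes had log2 fold changes from -0.02 to 0.02 and none passed. They comprise the somatic genes H1f1, H1f4 and H1f5, the germline genes H1f7 and H1f8 and the pseudogene H1f11-ps. All 6 lay near the floor of the scale, at mean log2 intensities of 5.77 to 6.18, so a change in their transcripts may not have been detectable at this signal.

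Divided by mean brightness over all 6 arrays, the 56 probes fell into a dim, a middle and a bright set. In the dim set of 18, 6 rose and the median was 0.07. In the middle set of 19, which holds 8 of the 11 H4 probes, 12 rose and the median was 0.57. In the bright set of 19, which holds the 8 bright H2A probes, 2 rose, 1 fell and the median was 0.06. Within classes the order of the sets differed. For H3 the median was 0.05 over 2 dim, 0.31 over 3 middle and 0.18 over 4 bright probes, and for H2B 0.20 over 4, 0.15 over 5 and 0.06 over 5. For H4 it was 0.20 over 2 dim and 0.66 over 8 middle probes, with 0.98 for the 1 bright probe, and for H2A 0.14 over 3, 0.30 over 2 and -0.16 over 8. For H1 it was 0.0061 over 7 dim probes, with -0.19 for the 1 middle and 0.69 for the 1 bright probe. Over the 56 probes the Spearman correlation between brightness and change was -0.139, a description over probes that share arrays and sequence. Within the middle set, the 8 H4 probes lay between 0.57 and 0.96 and all rose. Its 3 H3 probes lay between 0.30 and 0.42 with 2 that rose. Its 2 H2A probes lay at -0.11 and 0.70, and the latter rose. Its 5 H2B probes lay between 0.03 and 0.99 with 1 that rose, and its H1 probe at -0.19. The parts of class and brightness in the change were not tested.

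Some adjacent histone genes differed in sign or in whether they passed. With the order of protein-coding genes taken from RefSeq and 1 probe per gene (the brightest), 28 pairs of tested histone genes were adjacent. In 5 of these pairs both genes passed, in 17 one did and in 6 neither did, and 10 pairs had opposite signs. Histone genes that are not adjacent were not counted in this way, so these counts give no result about adjacency. All 4 pairs of an H4 gene with an H2A gene had opposite signs, which follows from the signs given above for all H4 and all bright H2A probes and adds nothing to them: H4c8 and H2ac10 (0.96 and -0.25), H4c12 and H2ac15 (0.85 and -0.19), H4c18 and H2ac24 (0.98 and -0.07), and H4c9 and H2ac11 (0.65 and -0.16). Of these, the H2A gene passed only for H2ac10, with the limits given above. These are the pairs whose promoters, except those of H4c9 and H2ac11, are printed above.

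**Figure D4:**
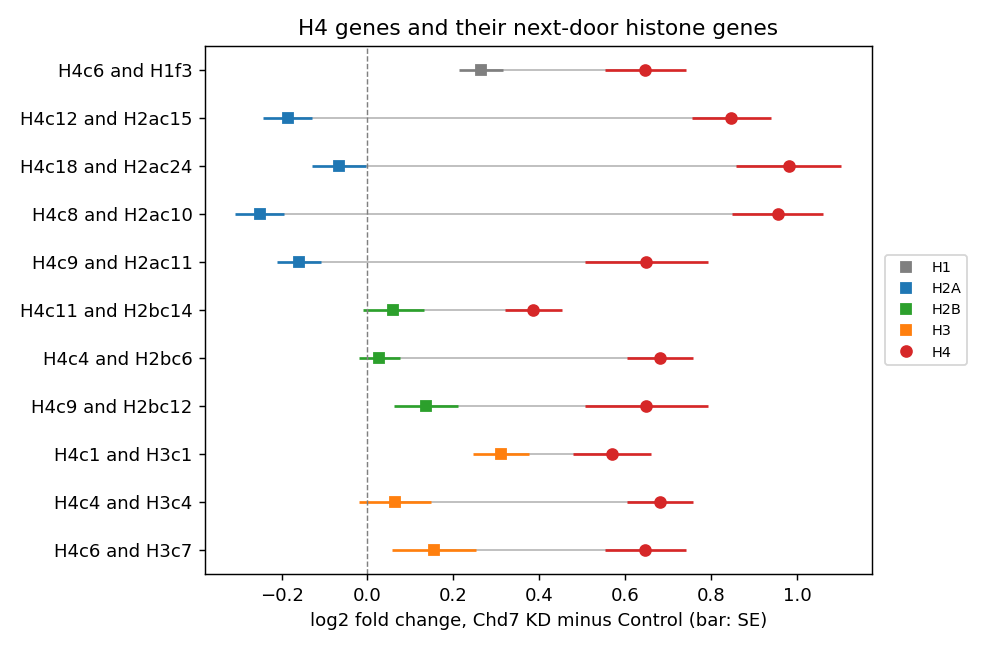
Log2 fold change (Chd7 KD minus Control) with SE for the 11 adjacent pairs of an H4 gene (red circles) and a histone gene of another class (squares), joined by grey lines. In each pair the H4 gene lies to the right, and the 4 H2A neighbours lie left of 0. Each H4 gene shown is among those that passed, so these positions follow largely from the class values.

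In the 11 pairs of an H4 gene with a gene of another class, the H4 gene passed in each, and the neighbour passed in 3. That each H4 gene passed follows from the class values, since H4c14, the sole H4 gene that did not pass, is in no pair. The neighbours that passed were as follows. They stood in the pairs H4c1 with H3c1 (0.57 and 0.31), H4c6 with H1f3 (0.65 and 0.26) and H4c8 with H2ac10. Of the H2B neighbours, H2bc6 (0.03 on its brighter probe), H2bc12 (0.14) and H2bc14 (0.06) did not pass. The 2 pairs of adjacent H4 genes, H4c11 with H4c12 and H4c2 with H4c1, passed on both sides, which follows in the same way. H4c2 is printed because, of the H4 genes with GGTCCG, it lies next to H4c1, the one without, and both rose. The stretch is chr13:23756807-23756951 on the plus strand.
H4c2: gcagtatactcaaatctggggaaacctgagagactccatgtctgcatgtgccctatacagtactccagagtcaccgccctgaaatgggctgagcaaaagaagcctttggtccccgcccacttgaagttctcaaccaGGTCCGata

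Replacement histones are made outside DNA replication as well, mostly from polyadenylated mRNAs. Of 13 tested probes of this list, 1 rose and 4 fell, against 4.05% and 4.81% of all tested probes, with a median of -0.19. The 1 that rose was H4f16, the H4 gene outside the symbol rule named above. No other probe of the list rose. Whether H4f16 is made outside DNA replication, as replacement histones are, was not tested. The 2 macroH2A genes, whose proteins carry a large extra domain, fell together. Macroh2a1 read 10.59, 10.34 and 10.48 in control samples against 9.54, 9.81 and 9.81 after knockdown (log2 fold change -0.75, adjusted p = 0.0033, SE 0.0994), and Macroh2a2 changed by -0.66 (adjusted p = 0.0039). Cenpa, the centromeric H3, changed by -0.66 (adjusted p = 0.00407), and H2az2, an H2A.Z gene, by -0.38 (0.0311). The groups did not overlap for any of the 4. H2az2 was lost without 1 array in at least 1 fit (adjusted p up to 0.108), while the other 3 passed in each fit.

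H2ax, whose protein marks DNA breaks, read -0.26 (adjusted p = 0.0612), H3f3a, an H3.3 gene, -0.25 (0.062), and H2az1 -0.19 (0.0635), and none of these passed. H3f3b, the other H3.3 gene, read -0.05 (0.873). With the replicate number as a block 6 replacement histone probes fell, now with H2ax (0.0454) and H3f3a (0.021).

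The machinery that makes and processes histone mRNA was represented by 21 tested probes for 20 genes. Of these 0 rose and 2 fell, where 4.05% and 4.81% of all tested probes did, and 6 had an unadjusted p below 0.05, as did 23.6% of all. These counts are near the background, and the median was -0.07. Cpsf2, a subunit of the complex that cleaves the mRNA end, changed by -0.44 (adjusted p = 0.0112, SE 0.0787), and Casp8ap2 (FLASH), a cofactor of that cleavage, by -0.24 (adjusted p = 0.0405, SE 0.0613). Both were lost in at least 1 fit without 1 array (adjusted p up to 0.0508 and 0.146). Srrt, which takes part in the processing of capped RNA, read -0.22 and did not pass (0.0742), but did with the replicate number as a block (0.0476).

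Slbp, Npat and Hinfp, which act directly on histone genes or their mRNAs, did not pass. Slbp, the stem-loop binding protein, read 9.83, 9.75 and 9.73 in control samples against 9.77, 9.86 and 9.79 after knockdown (log2 fold change 0.04, adjusted p = 0.814, SE 0.0697). Npat, the coactivator of histone genes in S phase, read -0.04 (adjusted p = 0.738, SE 0.0584), and Hinfp, a factor known to bind H4 promoters, 0.01 (adjusted p = 0.935, SE 0.0477). The groups overlapped for all of them.

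Histone chaperones carry histones to DNA. Of 24 tested probes for 20 genes, 0 rose and 5 fell (4.05% and 4.81% of all tested probes), 12 had an unadjusted p below 0.05 (23.6% of all), and the median was -0.08. Those that fell were both probes of Atrx (-0.25 and -0.34), its partner Daxx (-0.27), Nasp, which binds H3 and H4 (-0.31), and 1 of 2 probes of Supt16, a subunit of FACT (-0.37, and -0.07 on the other). All but the first Atrx probe were lost in at least 1 fit without 1 array (adjusted p up to 0.136), and in the authors' values 1 of the 24 probes fell.

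Canonical histones are made in S phase, for which 26 probes were tested. Of these 0 rose and 3 fell (4.05% and 4.81% of all tested probes), and 7 had an unadjusted p below 0.05 (23.6% of all), counts that give no result about the list. The median was -0.09. Mcm7 (-0.38) and Mcm6 (-0.33), subunits of the replicative helicase, and Prim1, a primase subunit (-0.54), were the ones that fell. Each was lost in at least 1 fit without 1 array (adjusted p up to 0.0706, 0.0991 and 0.0934), and with median scaling 1 fell. Pcna, the sliding clamp, read -0.09 (adjusted p = 0.696) and the nucleotide synthesis gene Rrm2 0.04 (0.831).

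Some markers of cell types were lower in the knockdown too. Over all tested probes, 4.81% fell and 4.05% rose. Of 10 precursor marker probes 6 fell and 0 rose, and the mean log2 intensity of the list was 8.53 to 8.63 in the controls and 8.11 to 8.14 in the knockdown. Of 11 neuron marker probes 5 fell and 0 rose (7.13 to 7.28 against 6.85 to 7.05). Olig2 and 1 probe each of the neuron markers Elavl3 and Elavl4 were lost in at least 1 fit without 1 array (adjusted p up to 0.071, 0.144 and 0.0574). Of 9 myelin marker probes 1 fell, Bcas1 (-0.67), and the list lay at 6.77 to 7.16 in the controls and 6.73 to 7.18 in the knockdown. Without the block no probe passed among 9 for astrocytes (9.16 to 9.25 against 9.18 to 9.29), 8 for microglia (6.14 to 6.15 against 6.14 to 6.19) or 8 for mesenchymal and endothelial cells (5.996 to 6.02 against 6.01 to 6.04). Of the markers on the array, Itgam, Tmem119, Pecam1 and Cldn5 were not well above background on at least 3 arrays. With the replicate number as a block, 6.9% of all tested probes fell and 6.74% rose. In that fit 8 precursor marker probes fell, now with Olig1 (adjusted p = 0.0386) and Nkx2-2 (0.0279). There 7 neuron marker probes fell, now with Map2 (0.0466) and Tubb3 (0.0337), while Syt1 rose (0.0185). Among astrocyte markers Gja1 rose (0.01) and Slc1a2 fell (0.0182), and among myelin markers Mog (0.0121) and Mobp (0.0133) rose. No microglia, mesenchymal or endothelial marker passed with the block. The part of cell composition in the histone values was not tested.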

How the data were processed

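Total RNA of 3 Control and 3 Chd7 KD samples was copied into amino allyl RNA and labelled with Cy5, per the labels' protocols. The deposited scanner intensity is each spot's median at 635 nm per the file headers, which say that readings at 3 gains were joined by least squares, over 27456 spots an array. A second deposited set of intensity values, made by the authors, has a median of 25 per array. Against the scanner values it appears as signal less about the blank mean, rescaled; no source states this.

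Scanner intensity was corrected with normexp (offset 50, all spots, no local background), quantile normalized and, as log2 values, averaged over the spots of a probe with limma 3.58.1 under R 4.3.3 (statmod 1.5.0; figures, matplotlib 3.10.9). Testing required a raw signal above the blank mean plus 2 SD on at least 3 of 6 arrays, and 1 probe marked bad at all gains was left out. Groups were compared with lmFit and eBayes with a trend, with Benjamini-Hochberg adjustment over 20957 probes (two-sided). The procedure was tested on simulated data. Of the 57 histone probes, 55 (50 genes) matched RefSeq by Entrez ID; Hist2h2bb and Hist3h2a did not. A promoter was found for 44 of the genes.

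Members and lists were chosen with earlier results of these data known. Probes named were those that passed, the 2 brightest and the 2 with the smallest p of each class, and the 3 with the smallest p of each related list; further ones were named after their values were seen. In the authors' values 11290 cells are empty: 7 belong to spots marked by the scanner and were left out as missing, a choice made after the values were seen, and 11283 were set to 1 before log2 of the value + 1.

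Samples of both groups carry numbers from 1 to 3. Same-numbered samples deviated together from their groups, with correlations of 0.368, 0.393 and 0.221, so the numbers may pair them, which is inferred from the data alone. The number was left out of the model for the values reported, and blocked values are given where they change a call. Alternatives were other background, scaling, filter and variance settings, the authors' values, the blocks, each gain group alone and leaving out arrays.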

Additional observations from a re-analysis of the deposited data

How the results depend on the processing

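The number of histone probes that rose was 14 to 17 without each array in turn and 13 without both arrays numbered 1. In each scanner gain group alone, with 2 arrays against 1, few of all tested probes passed. Such a fit takes a single array to vary as much as the rest. With the replicate number as a block 24 rose and 1 fell; all 21 probes that passed without the block passed with it, and 13 passed in each fit without 1 array. Of probes that fell (1), there were 0 with median scaling, in the authors' values with either handling of empty cells, in each gain group alone and without both arrays numbered 1. There were 2 with cyclic loess and without the variance trend, and 0 to 1 without each array in turn. The sign in the authors' values matched for 55 of 56 probes.

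The median over all histone probes was 0.16 with an offset of 16, 0.12 in either gain group alone, and 0.12 to 0.14 without each array in turn. The H1 median was -0.0081 with median scaling, -0.036 in the authors' values with either handling, -0.014 without both arrays numbered 1 and -0.0053 to 0.0085 without each array. The H2A median was -0.036 in the second gain group and -0.17 to -0.072 without each array in turn. The H2B median was 0.12 with median scaling, 0.11 in the authors' values with either handling and in the first gain group, and 0.13 without both arrays numbered 1. The H3 median was 0.24 with median scaling, 0.23 with gain group as a block, 0.19 and 0.23 in the gain groups, and 0.15 to 0.23 without each array. The H4 median was 0.78 with an offset of 16, 0.88 in the authors' values with either handling and 0.50 without both arrays numbered 1. The dim set's median was 0.13 with an offset of 16, 0.25 in the authors' values with either handling, 0.090 for probes detected on all 6 arrays and 0.051 to 0.087 without each array. The middle set's was 0.43 in the first gain group and 0.42 without both arrays numbered 1. The bright set's was 0.022 in the authors' values with either handling and -0.0093 to 0.087 without each array, negative without Control replicate 3. The cause of these shifts was not tested.

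With every empty cell of the authors' values set to 1, the dimmer H2ac18 probe read -1.63 (adjusted p = 0.712), since the spot marked by the scanner then counted as dark; this alternative was chosen after seeing the data. Signal close to blanks limits the dim H1, H2A and H2B probes, whose changes the offset shrinks.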
